A study of Rattus norvegicus with 31 samples.

Results

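The question addressed here was whether methamphetamine (METH), a drug that makes nerve terminals release dopamine and serotonin, acted differently on gene expression in the lesioned and in the intact striatum of hemiparkinsonian rats. For each probe, the METH effect on the lesioned side (ML minus SL) less the METH effect on the intact side (MNL minus SNL) was tested, and this difference of 2 effects is called the interaction. A negative interaction means that METH raised a transcript less, or lowered it more, on the lesioned side. The 4 groups make up 23 of the 31 arrays, and 9732 of 22519 probes entered the test, those with a signal above background on 4 or more arrays. All rats were male Sprague-Dawley rats, and 1 array was hybridised per striatum. The hemiparkinsonian rats had been injected with 6-hydroxydopamine (6-OHDA, 5 µl at 2 µg/µl), which kills dopamine and noradrenaline neurons, in the left medial forebrain bundle, which carries the dopamine fibres to the striatum. They had also been tested earlier with apomorphine and with METH, and were put into matched treatment groups by their METH-induced rotation. Striata were taken 2 h after saline or 2.5 mg/kg METH, given intraperitoneally. SNL (5 arrays) and SL (6 arrays) are the intact and lesioned striata after saline, and MNL and ML (6 arrays each) are those after METH. Rats without 6-OHDA that received saline (SC) or METH (MC) gave 4 arrays each. The earlier drug tests are given for the lesioned rats only, and the intact side is the other hemisphere of an operated rat.

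Medium spiny neurons, the main cell type of the striatum, receive dopamine on D1 receptors, which raise cyclic AMP, or on D2 receptors, which lower it. D1 signalling together with glutamate input activates kinases that reach the nucleus, where CREB and the serum response factor with its ELK1 partner switch on immediate early genes within minutes. These genes include the EGR zinc finger factors, the FOS and JUN subunits of AP-1 and the orphan receptors of the NR4A family, and psychostimulants are known to induce them in this tissue. The marker transcripts of dopamine neurons, Th, Slc6a3 and Slc18a2, cannot check the lesion here, because they were detected on 0 of 31 arrays. The study measured monoamines by HPLC and reported that dopamine was lost completely on the lesioned side. After saline some transcripts differed by side on the arrays, with SL over SNL at 5.34-fold for Nmu and 0.50-fold for Tac1.

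Arrays had 8042 to 9451 detected probes each, and the striatal markers Ppp1r1b, Rgs9, Pde10a, Adora2a, Drd1, Drd2, Penk and Tac1 were detected on all 31. The signals of ML replicate 22 and SL replicate 32 stood 4 rows off their probe names and were moved back. Transcripts of the choroid plexus, a tissue beside the striatum, were high on 4 arrays, namely SNL replicate 11, SL replicate 4, ML replicate 10 and ML replicate 30. On these arrays the mean log2 intensity over 10 choroid plexus markers lay between 7.89 and 9.15, against at most 7.13 on the others. Which left and right striata belong to the same rat is not labelled, so p-values measure the spread between arrays. In such bulk tissue, fewer cells of a type and less RNA per cell cannot be told apart.

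No interaction passed an adjusted p of 0.05 in limma, with Benjamini-Hochberg adjustment over the 9732 probes. The smallest adjusted p was 0.141, shared by 4 probes. At an unadjusted p under 0.05 there were 208 probes, or 2.14% of those tested, of which 91 (0.935%) were negative and 117 (1.2%) positive. With no interaction at any probe a share of about 0.05 is expected, so the p-values of this fit ran high as a whole. The fit took the arrays as unpaired, and the cause of the low share was not tested. The 10 probes with the smallest p were all negative, as were 16 of the first 20, 31 of the first 50 and 51 of the first 100, while 48.4% of all probes lay below 0. At the thresholds used in the study's methods for pairs of groups, 1.7-fold at an unadjusted p under 0.025, 10 probes (0.103%) were negative and 0 were positive. This balance changed with the processing, to 18 negative and 6 positive with floored signals and to 22 negative and 21 positive with the deposited log2 table. The fit to the deposited table also lacked ML replicate 22 and used array medians for scaling. The 10 in the fit reported were Egr2, Egr4, Egr1, Junb, Fos, Nr4a3, Arc, Rasl11a, Slc25a25 and Per1. When the 4 groups were normalized, filtered and fitted alone, 2 interactions passed an adjusted p of 0.05. These were Egr2 (adjusted p = 0.00515 in limma) and Egr4 (adjusted p = 0.0279). In 2 fits that took neighbouring striatum numbers as a block, Egr2, Egr4, Egr1, Junb, Arc and Rasl11a passed each time. The labels do not give this pairing. Leaving out single arrays also moved the count of interactions that passed. Without MC replicate 7, Egr2 and Egr4 passed, without MNL replicate 21, Egr2 and Rasl11a passed, and without ML replicate 26, Rasl11a alone passed, with 0 in the other leave-one-out fits.

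**Figure D1:**
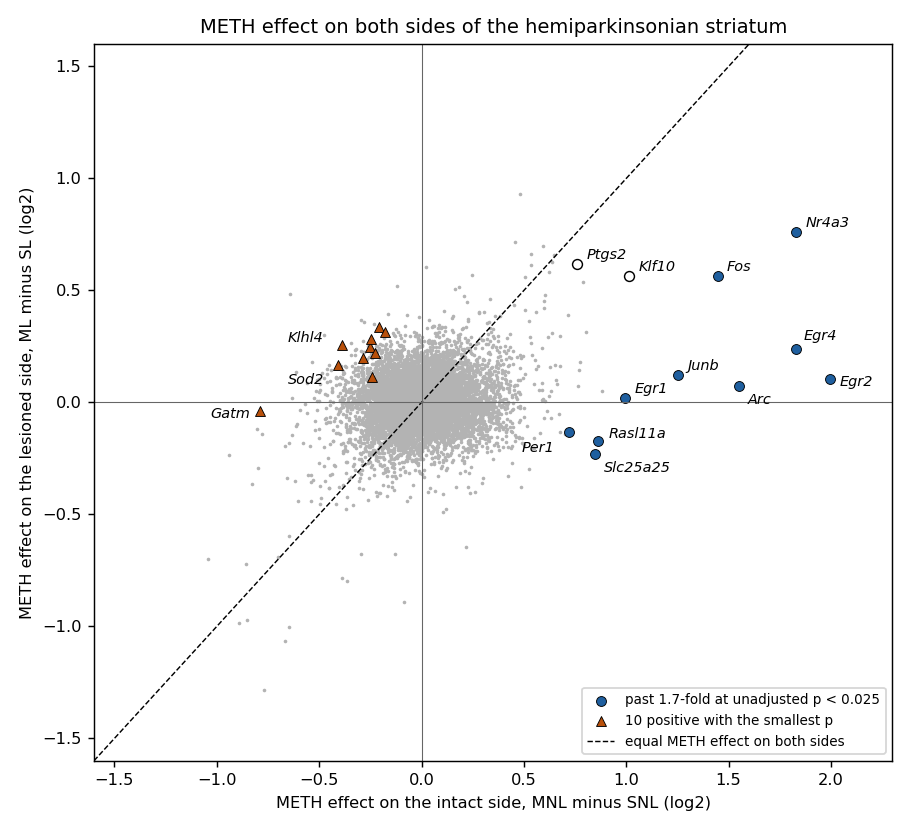
METH effect on the lesioned side (ML minus SL, y axis, log2) against the METH effect on the intact side (MNL minus SNL, x axis, log2) for the 9732 tested probes (grey), with the line of equal effects (dashed). The 10 probes past 1.7-fold at an unadjusted p under 0.025 (blue circles) all lie to the right and below the line, the 10 positive interactions with the smallest p (orange triangles) lie to its left, and Klf10 and Ptgs2 (open circles) are shown for comparison.

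Promoters of 4 genes with negative interactions are shown because CREB and the serum response factor are known regulators of immediate early genes. All 4 hold a match, so they do not stand for the negative genes as a whole. RefSeq windows from 250 bases before to 50 bases after the start (rat build GRCr8) were searched on both strands for the CREB half-site TGACG, the full site TGACGTCA, which holds 2 half-sites, and the CArG box of the serum response factor. Among the 10 genes with the smallest p and a negative interaction, 9 had a window and 6 of these 9 held TGACG, namely Egr1, Egr2, Egr4, Junb, Ppp1r15a and Slc25a25. The windows of Rasl11a, Fxyd5 and Cebpg held 0 of the sites searched. TGACG is present in 21.2% of 33469 windows in all. The full site was found in 2 of 9 (Ppp1r15a and Slc25a25) against 1.83% of all windows, and the CArG box in 2 of 9 (Egr1 and Egr2) against 1.64%. Of the 10 positive genes with the smallest p, all 10 had a window, 2 held TGACG (Mfsd8 and Papss1), and 0 held the full site or the CArG box. The EGR sites GCGTGGGCG and GCGGGGGCG were in 0 of 9 and 0 of 10 windows. A match describes the letters only. Capitals mark the half-sites TGACG, read as CGTCA on the other strand, and the CArG box, in the strand of the gene.
Egr2, chr20:21054392-21054691, minus strand: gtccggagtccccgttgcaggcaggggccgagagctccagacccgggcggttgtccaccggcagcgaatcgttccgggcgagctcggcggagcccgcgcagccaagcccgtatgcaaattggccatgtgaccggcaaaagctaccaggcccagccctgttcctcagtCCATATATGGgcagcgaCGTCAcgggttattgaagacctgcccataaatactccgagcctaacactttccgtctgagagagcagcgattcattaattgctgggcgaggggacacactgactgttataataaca
Egr4, chr4:119607768-119608067, minus strand: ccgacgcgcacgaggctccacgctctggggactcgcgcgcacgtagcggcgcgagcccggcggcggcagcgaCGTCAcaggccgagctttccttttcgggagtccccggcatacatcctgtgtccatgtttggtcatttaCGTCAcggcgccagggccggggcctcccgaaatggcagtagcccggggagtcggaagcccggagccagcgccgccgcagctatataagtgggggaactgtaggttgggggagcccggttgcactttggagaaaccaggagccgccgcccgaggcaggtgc
Junb, chr19:40080876-40081175, plus strand: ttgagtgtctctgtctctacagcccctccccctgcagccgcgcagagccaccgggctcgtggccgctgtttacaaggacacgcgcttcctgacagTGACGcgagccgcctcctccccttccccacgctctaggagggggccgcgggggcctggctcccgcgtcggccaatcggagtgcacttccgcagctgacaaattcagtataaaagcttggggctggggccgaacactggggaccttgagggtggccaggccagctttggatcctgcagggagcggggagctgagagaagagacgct
Slc25a25, chr3:36116532-36116831, minus strand: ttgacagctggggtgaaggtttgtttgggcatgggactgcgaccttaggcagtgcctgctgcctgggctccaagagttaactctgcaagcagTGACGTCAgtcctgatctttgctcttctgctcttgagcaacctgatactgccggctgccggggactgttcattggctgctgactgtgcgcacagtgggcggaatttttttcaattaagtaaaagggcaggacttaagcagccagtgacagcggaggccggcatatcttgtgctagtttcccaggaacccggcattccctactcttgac
In Egr2 the CArG box begins 83 bases and the half-site 66 bases before the start, in Egr4 the half-sites begin 178 and 110 bases before it, and in Slc25a25 the full site begins 158 bases before it.

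Among the EGR genes, zinc finger factors that bind GC-rich sites in the promoters of late response genes, METH raised the intact side and left the lesioned side near its saline level. The log2 intensity of Egr2 on the SNL arrays was 7.27, 7.57, 7.67, 8.19 and 8.34. On the MNL arrays it ran from 9.29 over a median of 9.88 to 10.32, above every SNL array. On the SL arrays it ran from 7.74 (median 8.13) to 8.69 and on the ML arrays from 7.92 (median 8.33) to 8.62, so that these groups overlapped while every ML array lay below every MNL array. Across all probes, 0.247% had every MNL array above every SNL array, and 0.144% had every ML array below every MNL array. METH thus raised Egr2 3.99-fold on the intact side (log2 2.00, SE 0.26, adjusted p = 9.35e-05 in limma), with a change of 1.08-fold on the lesioned side (log2 0.11, SE 0.25). The interaction was -1.89 on the log2 scale (SE 0.37, 95% confidence interval -2.64 to -1.14, unadjusted p = 1.48e-05, adjusted p = 0.141). Such folds are on the scale of background-corrected intensities with an offset, which understates changes of dim probes.

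Egr4, a relative with a narrower expression in the brain, showed the same order of groups. Its log2 intensity on the SNL arrays was 5.49, 5.85, 5.95, 6.11 and 6.34, and on the MNL arrays 7.14 to 8.24 with a median of 7.82. The SL arrays lay between 6.09 and 6.85 (median 6.38) and the ML arrays between 6.06 and 7.16 (median 6.68). Again every MNL array was above every SNL array, and the SL and ML arrays overlapped. The effect was 3.56-fold on the intact side (log2 1.83, SE 0.25) and 1.18-fold on the lesioned side (log2 0.24, SE 0.23), with an interaction of -1.59 (SE 0.34, 95% confidence interval -2.29 to -0.90, unadjusted p = 5.81e-05, adjusted p = 0.141). Egr1, the founding member of the family and the brightest of these probes, was 9.05, 9.29, 9.72, 9.72 and 9.83 on the SNL arrays and 10.29 to 10.94 (median 10.45) on the MNL arrays. It was 8.94 to 9.96 (median 9.49) on the SL arrays and 9.33 to 9.73 (median 9.50) on the ML arrays. The means of the SNL, SL and ML groups were 9.52, 9.50 and 9.52, and the MNL group stood alone at 10.52. The interaction of Egr1 was -0.98 (SE 0.25, unadjusted p = 0.000614, adjusted p = 0.747). The Egr3 probe reached detection on 0 of 31 arrays, so Egr3 was left out of the fit.

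**Figure D2:**
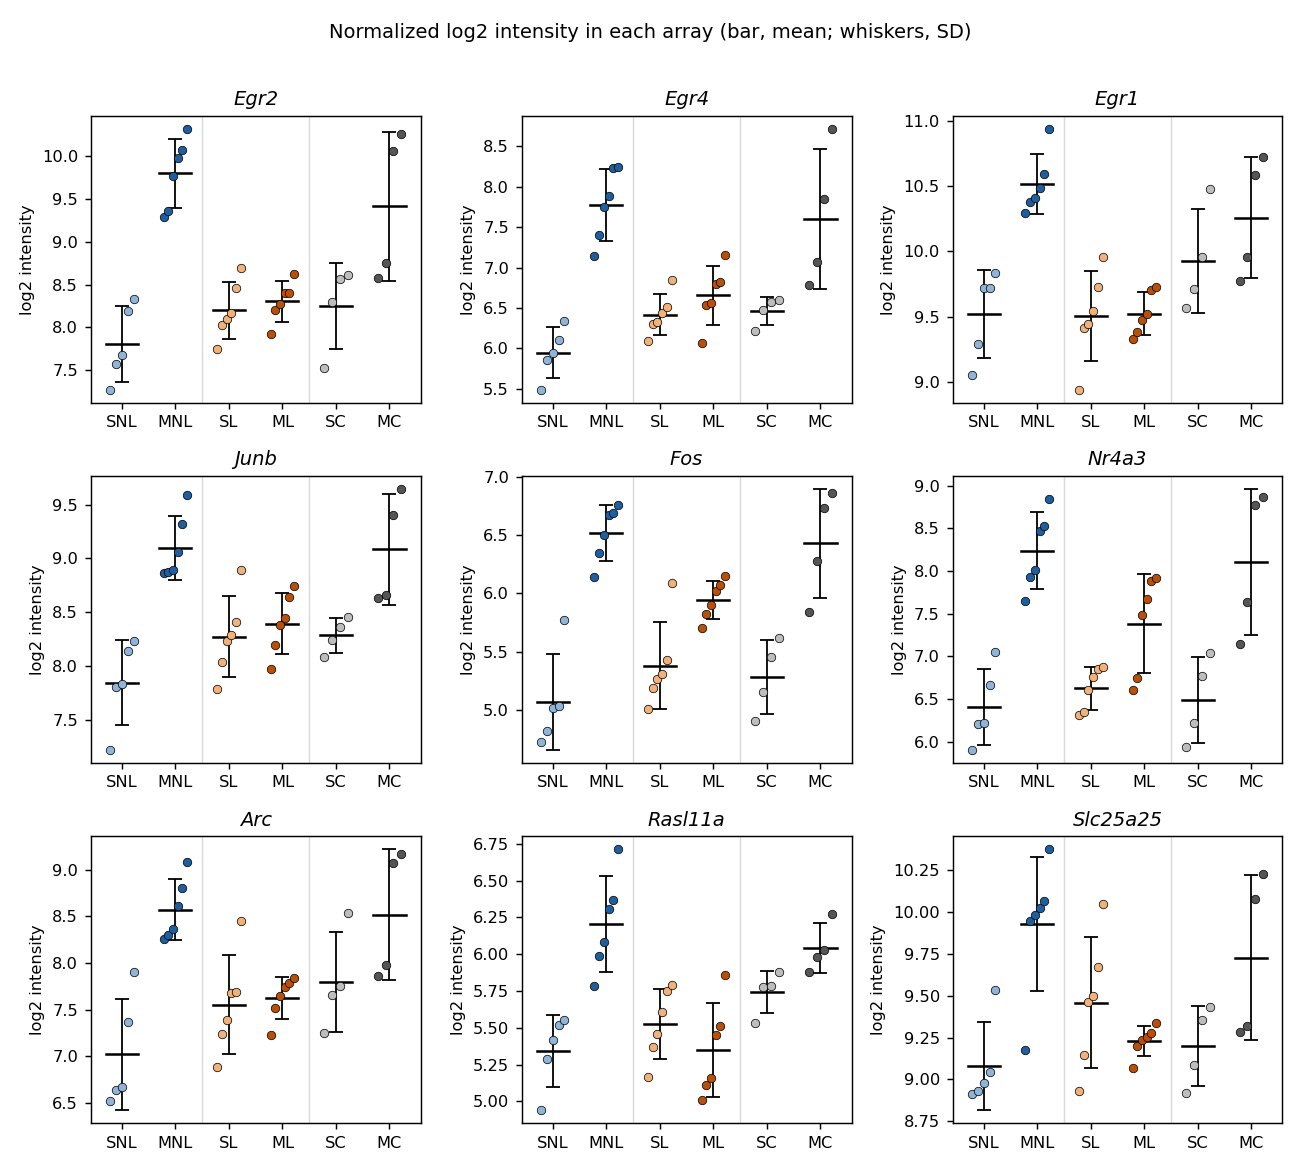
Normalized log2 intensity of 9 genes on each array (points), by group, with the group mean (bar) and SD (whiskers). For Egr2 the 6 MNL arrays lie between 9.29 and 10.32, above all SNL, SL and ML arrays. The METH effect on the lesioned side is 1.08-fold for Egr2, 1.48-fold for Fos and 1.69-fold for Nr4a3.

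The AP-1 genes gave a mixed picture. Junb encodes a JUN subunit of AP-1 that is itself quickly induced. Its log2 intensity was 7.22, 7.80, 7.83, 8.14 and 8.23 on the SNL arrays, 8.86 to 9.59 (median 8.97) on the MNL arrays, 7.78 to 8.89 (median 8.26) on the SL arrays and 7.97 to 8.74 (median 8.41) on the ML arrays. All MNL arrays were above all SNL arrays and all ML arrays, while SL and ML overlapped. Junb rose 2.39-fold on the intact side and was 1.09-fold on the lesioned side, with an interaction of -1.13 (SE 0.28, unadjusted p = 0.000293, adjusted p = 0.507). Fos, a FOS subunit of AP-1 and the classic marker of neuronal activation, was dim. It was detected on 1 of 5 SNL arrays, 4 of 6 SL arrays and all MNL and ML arrays. Its log2 intensity was 4.72, 4.82, 5.02, 5.03 and 5.77 on the SNL arrays, 6.14 to 6.76 (median 6.58) on the MNL arrays, 5.01 to 6.09 (median 5.29) on the SL arrays and 5.71 to 6.15 (median 5.96) on the ML arrays. The SL and ML ranges overlapped through 1 SL array at 6.09, the other 5 SL arrays being at or below 5.43. The METH effect on Fos was 2.73-fold on the intact side (adjusted p = 9.35e-05) and 1.48-fold on the lesioned side (unadjusted p = 0.00415, adjusted p = 1.00), and the interaction was -0.88 (SE 0.26, unadjusted p = 0.00218, adjusted p = 1.00). Jun had an interaction of -0.17 (95% confidence interval -0.58 to 0.23), with METH effects of 0.11 on the intact and -0.07 on the lesioned side (log2). The Fosb, Fosl1, Fosl2 and Jund genes had no probe under their symbols.

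Of the NR4A genes, nuclear receptors that act without a known ligand, Nr4a3 followed Fos. Its log2 intensity was 5.91, 6.21, 6.22, 6.66 and 7.05 on the SNL arrays and 7.65 to 8.84 (median 8.24) on the MNL arrays. It was 6.31 to 6.88 (median 6.68) on the SL arrays and 6.60 to 7.92 (median 7.58) on the ML arrays. METH raised Nr4a3 3.55-fold on the intact side (adjusted p = 0.00132), and the lesioned side was 1.69-fold (unadjusted p = 0.0103, adjusted p = 1.00). The interaction was -1.07 (SE 0.40, 95% confidence interval -1.89 to -0.25, unadjusted p = 0.0125, adjusted p = 1.00). The 2 low ML arrays, replicate 10 at 6.60 and replicate 30 at 6.75, were those high in choroid plexus transcripts, and the other 4 ML arrays lay between 7.48 and 7.92. Without the 4 arrays high in these transcripts the interaction of Nr4a3 was -0.62 (unadjusted p = 0.154). Nr4a2, a factor needed in dopamine neurons, had an interaction of 0.18 with a wide 95% confidence interval of -1.10 to 1.47. The Nr4a1 probe was detected on 0 of 31 arrays.

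Over the whole list of inducible transcription factors, 24 of 35 genes were tested and 21 of the 24 had a negative interaction, with a median of -0.29 on the log2 scale against 0.01 over all probes. At an unadjusted p under 0.05 there were 9 negative and 0 positive members (0.935% and 1.2% of all probes), and 0 passed an adjusted p of 0.05. This and the other gene lists were drawn up with earlier results of these data known, so their counts are a description. The median METH effect of the list was 0.11 on the lesioned side, 0.39 on the intact side and 0.25 in the control rats. Klf10, a zinc finger factor induced by TGF-beta, was the member of this list with the lowest p on the lesioned side. Its log2 intensity was 5.37, 5.49, 5.70, 5.83 and 5.89 on the SNL arrays, 6.35 to 7.11 (median 6.66) on the MNL arrays, 5.18 to 6.19 (median 5.89) on the SL arrays and 6.08 to 6.80 (median 6.37) on the ML arrays. The METH effects were 1.01 on the intact side (adjusted p = 0.00315) and 0.56 on the lesioned side (unadjusted p = 0.0018), and the interaction was -0.45 (95% confidence interval -0.94 to 0.03).

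Among genes of synapses, signalling and metabolism that are induced by activity, the MNL group again had the highest mean for Arc, Rasl11a, Slc25a25 and Pard6a, while the order of SL and ML differed between them. Arc, a protein that governs AMPA receptor uptake at active synapses, had log2 intensities of 6.52, 6.64, 6.67, 7.37 and 7.90 on the SNL arrays and 8.26 to 9.09 (median 8.49) on the MNL arrays. On the SL arrays it was 6.88 to 8.44 (median 7.54) and on the ML arrays 7.23 to 7.84 (median 7.69). All MNL arrays lay above all SNL and all ML arrays. Arc rose 2.93-fold on the intact side and was 1.05-fold on the lesioned side, with an interaction of -1.48 (SE 0.38, unadjusted p = 0.000509, adjusted p = 0.708). Rasl11a, a small RAS-like GTPase, was dim, with 4.94, 5.29, 5.42, 5.52 and 5.55 on the SNL arrays and 5.78 to 6.71 (median 6.19) on the MNL arrays. On the lesioned side it was 5.17 to 5.79 (median 5.53) after saline and 5.01 to 5.86 (median 5.31) after METH, and it was detected on 3 of 5 SNL, 5 of 6 SL, 6 of 6 MNL and 3 of 6 ML arrays. Its interaction was -1.04 (SE 0.21, 95% confidence interval -1.47 to -0.60, unadjusted p = 3.36e-05, adjusted p = 0.141).

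Slc25a25, a calcium-regulated carrier of ATP across the inner mitochondrial membrane, had a saline level on the lesioned side that reached further up than on the intact side. It was 8.91, 8.93, 8.98, 9.04 and 9.54 on the SNL arrays and 8.93 to 10.05 (median 9.48) on the SL arrays. After METH it was 9.17 to 10.38 (median 10.00) on the intact and 9.07 to 9.34 (median 9.24) on the lesioned side. The interaction of -1.08 (SE 0.27, unadjusted p = 0.000312, adjusted p = 0.507) was made of 0.85 on the intact and -0.23 on the lesioned side. Pard6a, a scaffold of cell polarity, was raised on the intact side by 0.59 (adjusted p = 0.0465) with 0.01 on the lesioned side, and had an interaction of -0.58 (unadjusted p = 0.00225). Of the list of activity-induced effectors, 28 of 41 genes were tested, and 21 were below 0 with a median of -0.10. An unadjusted p under 0.05 was reached by 5 negative and 0 positive members, against 0.935% and 1.2% of all probes. This list, too, was drawn up with earlier results of these data known, so its counts are a description. Sik1, a kinase that restrains CREB coactivators, had an interaction of -0.58 (unadjusted p = 0.0231).

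Of the inhibitors of the kinase cascade and the clock genes, Dusp6, Dusp1, Per1 and Per2 had negative interactions at an unadjusted p under 0.05, and for Dusp6, Per1 and Per2 the lesioned-side effect itself was below 0. Dusp6, the phosphatase of ERK in the cytoplasm, was 7.90, 8.09, 8.62, 8.62 and 8.83 on the SNL arrays, 8.63 to 9.17 (median 8.84) on the MNL arrays, 8.30 to 8.97 (median 8.55) on the SL arrays and 7.96 to 8.75 (median 8.23) on the ML arrays. The groups overlapped on either side. Its METH effects were 0.42 on the intact side and -0.33 on the lesioned side, and the interaction was -0.75 (SE 0.23, unadjusted p = 0.0031, adjusted p = 1.00). Dusp1, a nuclear phosphatase of the same cascade, had an interaction of -0.63 (unadjusted p = 0.0363) with 0.77 on the intact and 0.14 on the lesioned side. In successive runs of 12 replicate numbers, chosen after the data were seen, the intact effect of Dusp1 was 1.08, 0.97 and -0.18. Its interaction was -0.89, -0.66 and 0.12 in these runs, which hold few arrays per group. In the list of MAPK feedback regulators, 9 of 16 genes were tested, 7 were below 0 with a median of -0.06, and Dusp6 and Dusp1 were the 2 at an unadjusted p under 0.05 (0.935% of all probes, negative). Per1, a clock gene that is also induced through CREB, was 8.27, 8.44, 8.61, 9.05 and 9.35 on the SNL arrays and 9.24 to 9.69 (median 9.52) on the MNL arrays. It was 8.33 to 9.60 (median 8.85) on the SL arrays and 8.56 to 9.03 (median 8.72) on the ML arrays. All ML arrays were below all MNL arrays, and the interaction was -0.85 (SE 0.29, unadjusted p = 0.00647, adjusted p = 1.00). Per2 had an interaction of -0.66 (unadjusted p = 0.0136), with METH effects of 0.30 on the intact and -0.36 on the lesioned side. Of the 18 clock genes listed, 9 were tested, 8 were below 0 with a median of -0.21, and Per1 and Per2 were the 2 at an unadjusted p under 0.05 (0.935% of all probes, negative). Ppp1r15a, a phosphatase subunit that restarts protein synthesis after stress, had an interaction of -0.62 (unadjusted p = 0.002). Fxyd5, a regulator of the sodium pump, had one of -0.60 (unadjusted p = 0.000902) with another order of groups. Its log2 intensity was 4.91, 5.23, 5.28, 5.38 and 5.54 on the SNL arrays, 5.61 to 6.26 (median 5.67) on the SL arrays, 5.48 to 5.83 (median 5.55) on the MNL arrays and 5.36 to 5.77 (median 5.48) on the ML arrays. Every SL array was above every SNL array, as for 0.216% of all probes.

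**Figure D3:**
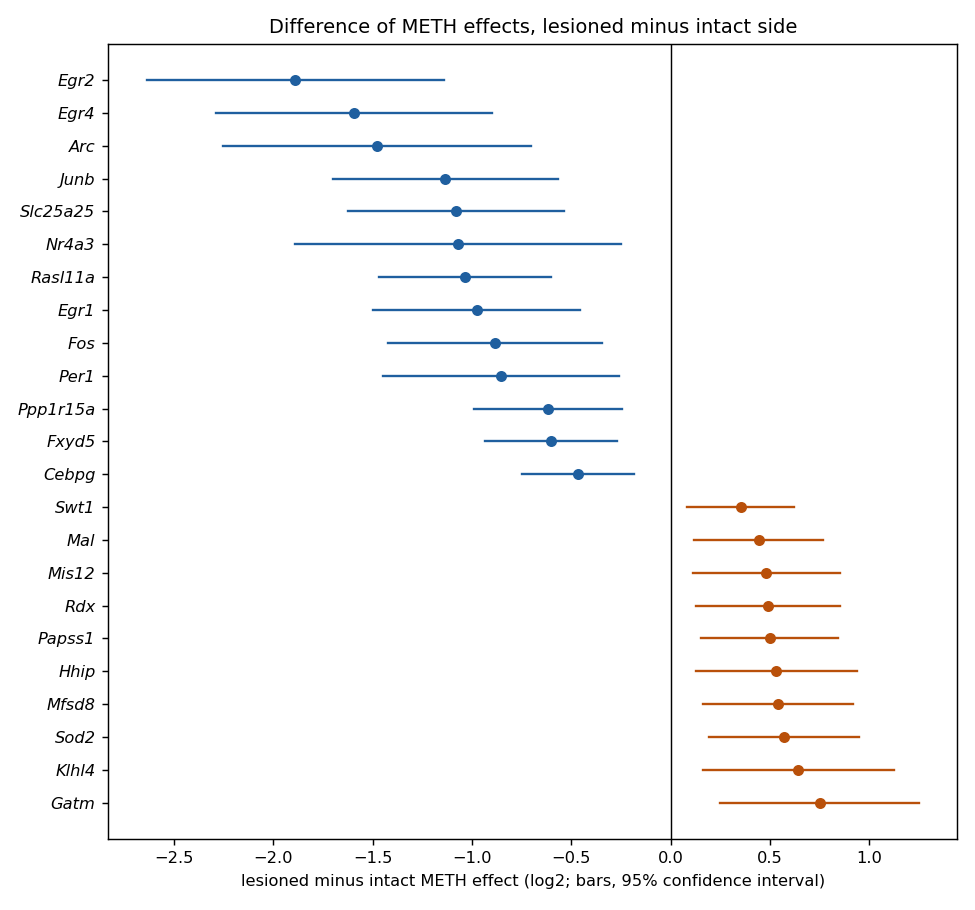
Interaction (lesioned minus intact METH effect, log2, x axis) with its 95% confidence interval for the 10 negative (blue) and 10 positive (orange) genes with the smallest p and the further genes past 1.7-fold. Egr2 is at -1.89 and Gatm at 0.75. None of these intervals includes 0 because the genes were picked by p. None of the genes passes an adjusted p of 0.05 in the fit reported.

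The same genes were set beside METH-treated rats that had no lesion. The MC minus SC effect lay between the lesioned and the intact effect for 10 of the 10 genes past 1.7-fold. These genes were chosen for a low lesioned and a high intact effect, which favours such a place between them, so it is a description. The control effect itself was not used to choose them and was positive for all 10 (0.30 to 1.61 on the log2 scale, median 0.76), with an unadjusted p under 0.05 for 8 (3.63% of all probes, positive). Their lesioned-side effects ran from -0.23 to 0.76 (median 0.09) and their intact-side effects from 0.72 to 2.00 (median 1.35). The MC over SC ratio was 2.25-fold for Egr2, 2.20-fold for Egr4, 2.21-fold for Fos, 3.06-fold for Nr4a3, 1.65-fold for Arc and 1.26-fold for Egr1. The control groups have 4 arrays each, and in MC the values of Egr2 were 8.58, 8.75, 10.07 and 10.26, a wide spread. Klf10 was the exception among the genes raised on the intact side, with 0.26 in control rats against 0.56 on the lesioned side.

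**Figure D4:**
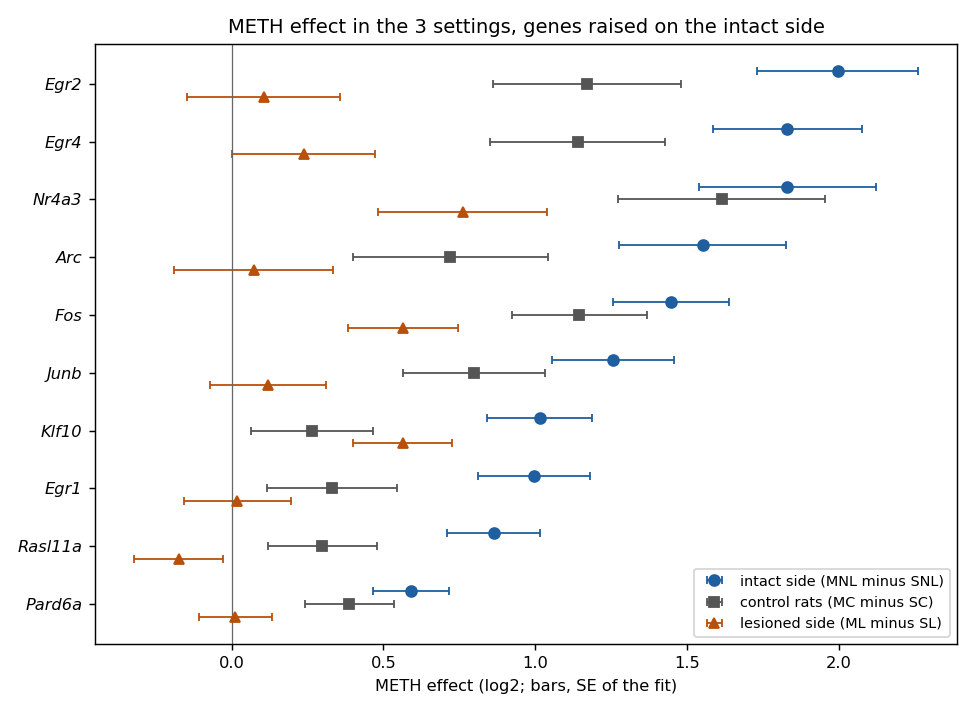
METH effect (log2, x axis) with its standard error on the intact side (blue circles), in control rats (grey squares) and on the lesioned side (orange triangles) for the 10 named genes that METH raised in MNL (adjusted p under 0.05). The genes were chosen by the intact effect. The control value lies between the other two for all but Klf10, and the lesioned values run from -0.17 to 0.76.

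METH raised 11 probes (0.113%) in MNL over SNL, with an adjusted p under 0.05, and lowered 0, with 507 probes (5.21%) at an unadjusted p under 0.05. On the lesioned side 0 probes passed, with 185 probes (1.9%) at an unadjusted p under 0.05. This share, too, is below the 0.05 expected with no effect at any probe. The interaction of the 11 probes is part of how they were chosen, since MNL minus SNL enters it, so their interactions (all 11 negative, median -1.04) are given as a description. The lesioned-side effect was not used to choose them. Its median over the 11 was 0.12, with a range of -0.17 to 0.76, and for 3 of them, Nr4a3, Fos and Klf10, its unadjusted p was under 0.05. The median effect in control rats was 0.73. The 11th probe, ILMN_1376762, has no gene symbol, and it was detected on 3 of 6 MNL arrays and on 0 SNL, SL and ML arrays, so no fold is given. With both lesioned groups below detection, its lesioned-side effect and its interaction carry no information about METH on that side. Over the 10 probes with a symbol the median lesioned-side effect was 0.11 and the median interaction -1.05.

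Positive interactions were smaller, with 117 probes (1.2%) at an unadjusted p under 0.05 and 0 past 1.7-fold at an unadjusted p under 0.025. The 10 genes given here were picked by p, and none passed an adjusted p of 0.05 in limma. Gatm, which makes the first intermediate of creatine synthesis, was 7.86, 8.13, 8.23, 8.26 and 8.65 on the SNL arrays, 6.78 to 7.97 (median 7.41) on the MNL arrays, 7.21 to 8.04 (median 7.82) on the SL arrays and 7.37 to 8.16 (median 7.74) on the ML arrays. Its interaction was 0.75 (SE 0.24, 95% confidence interval 0.25 to 1.25, unadjusted p = 0.00458, adjusted p = 1.00), with -0.79 on the intact and -0.04 on the lesioned side. Sod2, the superoxide dismutase of mitochondria, was 8.38, 8.64, 8.67, 8.77 and 9.26 on the SNL arrays, 8.20 to 8.57 (median 8.32) on the MNL arrays, 8.16 to 8.48 (median 8.40) on the SL arrays and 8.25 to 8.80 (median 8.58) on the ML arrays. Its interaction was 0.57 (SE 0.18, unadjusted p = 0.0043), with -0.41 on the intact and 0.16 on the lesioned side. The other positive genes with the smallest p were Klhl4 (0.64), Mfsd8 (0.54), Hhip (0.53), Papss1 (0.50), Rdx (0.49), Mis12 (0.48), Mal (0.44) and Swt1 (0.35). HHIP binds hedgehog ligands, RDX links membrane proteins to actin, and MFSD8 is a lysosomal membrane protein. Papss1, an enzyme that makes the sulfate donor of the cell, has a second and brighter probe with an interaction of 0.17 (unadjusted p = 0.187).

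The 4 group means make up the interaction that chose both sets of genes, so which group was high or low is a description. For 9 of the 10 positive genes the SNL group had the highest mean of the 4, and for 10 of 10 the SL mean was lower than the SNL mean, whereas for 10 of 10 genes past 1.7-fold in the negative direction the MNL group was highest. After METH, ML minus MNL was 0.03 to 0.29 on the log2 scale for the 10 positive genes. For the 10 genes past 1.7-fold in the negative direction it was -1.50 to -0.57. The SNL group has 5 arrays. Mal, a proteolipid of myelin, was the 1 of 12 tested oligodendrocyte markers with an unadjusted p under 0.05 (1.2% of all probes, positive). Of these 12 markers 11 were above 0, with a median interaction of 0.28, a median of -0.20 on the intact and 0.04 on the lesioned side. The mean log2 intensity over them was 9.88 to 10.43 (median 10.18) on the SNL arrays, 9.75 to 10.14 (median 9.91) on the SL arrays, 9.85 to 10.14 (median 9.93) on the MNL arrays and 9.77 to 10.29 (median 9.93) on the ML arrays. The part of oligodendrocyte transcripts in the other positive interactions was not tested.

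Neuropeptide transcripts, which mark the output pathways of the striatum and are known to follow dopamine, had no interaction at an unadjusted p under 0.05. Of 28 genes 24 were tested and 20 were below 0, with a median of -0.13. Penk, the enkephalin precursor of the indirect pathway, had a METH effect of 0.17 on the intact and 0.16 on the lesioned side, and its interaction lay at 0 to 2 decimals (95% confidence interval -0.45 to 0.44). Tac1, the substance P precursor of the direct pathway, had 0.55 and 0.19, with an interaction of -0.37 (95% confidence interval -1.05 to 0.31). Pdyn, the dynorphin precursor of the same pathway, had 0.27 and 0.19, with an interaction of -0.08 (95% confidence interval -0.61 to 0.46). Nts, the neurotensin precursor, had 0.72 and 0.39, with an interaction of -0.33 (95% confidence interval -1.07 to 0.42). Nmu, the neuromedin U precursor, had 0.59 and 0.06, with an interaction of -0.53 (95% confidence interval -1.36 to 0.29). The intervals of Tac1, Nts and Nmu reach below the interaction of Fos, and those of Penk and Pdyn do not.

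Further transcripts had METH effects that lay close together on both sides. Ptgs2, the inducible cyclooxygenase, was 7.05, 7.58, 8.00, 8.08 and 8.39 on the SNL arrays, 8.01 to 9.50 (median 8.51) on the MNL arrays, 8.19 to 9.13 (median 8.48) on the SL arrays and 8.20 to 9.68 (median 9.42) on the ML arrays. Its METH effects were 0.76 on the intact and 0.62 on the lesioned side, and the interaction was -0.14 (95% confidence interval -0.90 to 0.61). Inhba, a subunit of activin, had effects of 0.51 and 0.41 and an interaction of -0.10 (95% confidence interval -0.66 to 0.47). Its probe was dim, detected on 2 of 5 SNL, 5 of 6 SL, 4 of 6 MNL and 6 of 6 ML arrays. Abcg2, an efflux transporter of brain capillaries, had effects of -0.89 and -0.99, with an interaction of -0.09 (95% confidence interval -1.03 to 0.85). In successive runs of 12 replicate numbers, its intact effect was -0.13, -1.12 and -1.79. Its lesioned effect was -0.03, -0.89 and -2.04 in the same runs, which were chosen after the data were seen. The activin antagonist Fst had an interaction of -0.26 and the activin receptor Acvr1 one of 0.04, neither with an unadjusted p under 0.05. None of these METH effects passed an adjusted p of 0.05 in limma. The probes of Pdgfd and Synj2bp were detected on 0 arrays and that of Syt10 on 2.

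The signalling genes between dopamine receptors and the nucleus were even around 0. Of 35 genes 26 were tested, 13 were below and 13 above 0, the median was 0.00 and 0 had an unadjusted p under 0.05. The markers of direct-pathway neurons (7 tested, median 0.05), indirect-pathway neurons (4 tested, median -0.02) and medium spiny neurons in general (17 tested, median 0.06) also had 0 members at this p. The same was true of the markers of interneurons, cortical neurons, microglia, astrocytes, endothelium and choroid plexus. Of 13 tested activin and TGF-beta genes, Pmepa1 alone had a negative interaction at this p. Of 12 tested glucocorticoid-induced genes, Per1 alone had one, against 0.935% of all probes. The 4 tested serotonin receptors had 0. Of 11 microglia markers 8 were below 0 with a median of -0.15. Of 10 choroid plexus markers 9 were above 0 with a median of 0.17. Of all probes, 48.4% were below 0. Ttr, the transthyretin of the choroid plexus, ranged from 5.59 to 13.63 over the 31 arrays. Without the 4 arrays high in choroid plexus transcripts, the interactions of 9 of the 10 genes past 1.7-fold kept an unadjusted p under 0.05, Nr4a3 being the exception. Egr2 then had -1.68 (unadjusted p = 0.000529), and 13 probes passed 1.7-fold at an unadjusted p under 0.025, 11 negative and 2 positive.

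**Figure D5:**
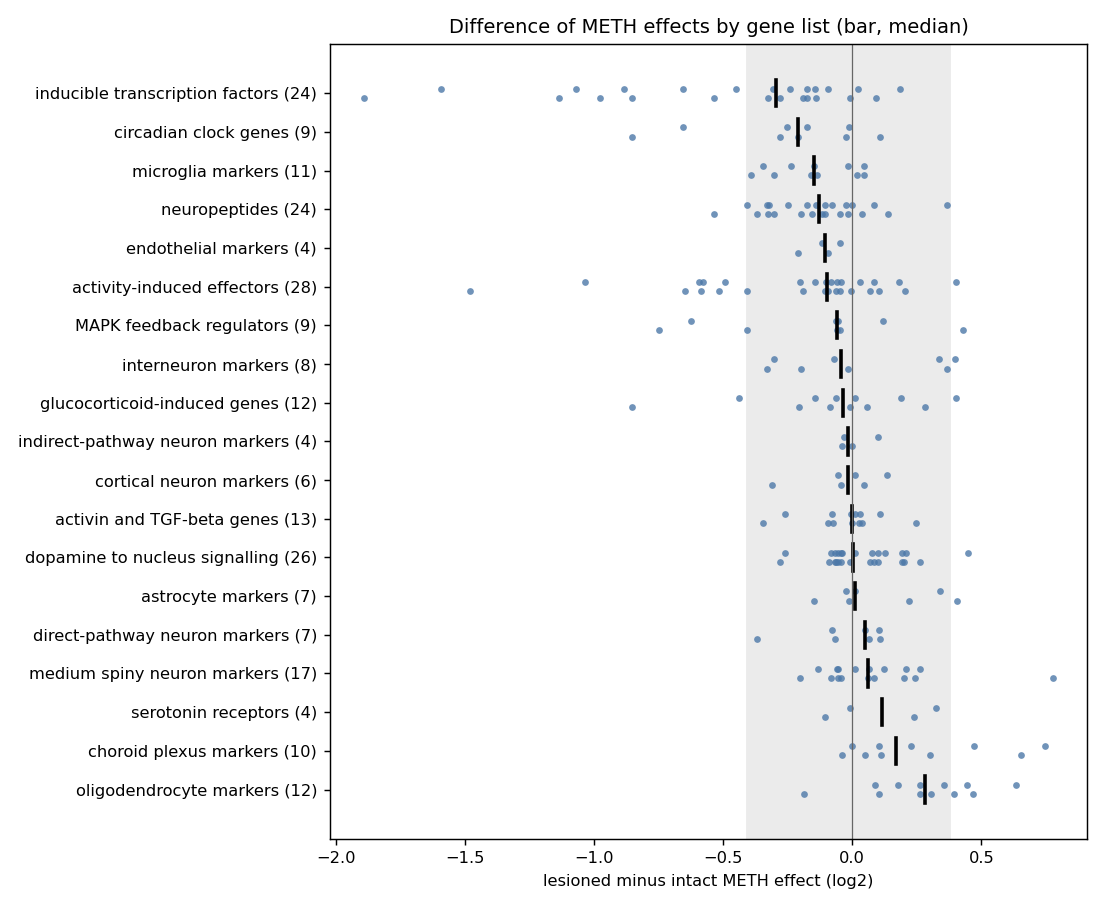
Interaction (log2, x axis) of each tested member (points) of 19 gene lists, with the list median (bar) and the number tested in brackets. The grey band holds the middle 95% of all probes, -0.41 to 0.38, and Egr2, at -1.89, is the lowest point.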

How the data were processed

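Total RNA of 1 striatum was hybridised to each of 31 single-colour Illumina RatRef-12 arrays. The deposited probe signals are intensity values that the authors exported from BeadStudio without normalization, each with a deposited detection p-value. A deposited log2 table, which holds log2 signals floored at 1 less a constant per probe (column medians -0.123 to 0.380), was used only as an alternative, and the scale of its centring is not given in the sources used here. Its column for ML replicate 22 was not used because it holds 1 less the detection p-value.

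Signals of ML replicate 22 and SL replicate 32 were moved by 4 rows, after which their correlation with the median of the other arrays was 0.985 and 0.986 (before, 0.209 and 0.211), and 4 probes were left out. Intensities went through neqc, which corrects background by means of the detection p-values, adds an offset of 16, sets the arrays to common quantiles and takes log2. Probes with a detection p-value under 0.01 on at least 4 of 31 arrays were kept. The 6 group means were fitted to 31 arrays with limma 3.58.1 in R 4.3.3, with Benjamini-Hochberg adjustment over 9732 probes at a threshold of 0.05. The study's thresholds for pairs of groups, 1.7-fold and p under 0.025, were taken from that fit as well. Of the probes, 13793 had 1 gene symbol and 8730 none, by a RefSeq table of build GRCr8. The script was tested on simulated data. The number of arrays limits the precision, and the median 95% interval of an interaction reached 0.37 to either side. Arrays were grouped by their labels.

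Named genes were the 10 with the smallest p in each direction, those called on either side, the genes the study measured by PCR and up to 4 per gene list; all genes past 1.7-fold fell under one of these rules. The members and lists were chosen with earlier results of these data known. Alternatives changed the scaling, background, filter, groups, weights, prior, pairing and arrays. Python 3.11.15 was used for sequences and figures.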

Additional observations from a re-analysis of the deposited data

Results flagged for a closer look

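Of 104 groups of 4 to 6 arrays looked at for the named genes, 4 held 1 array that stood apart from the rest of its group by the 95% critical value of Dixon's ratio, and some such values arise by chance. Slc25a25 was 9.54 in SNL replicate 27, the highest of its group with the nearest array at 9.04, and 9.17 in MNL replicate 9, the lowest of its group with the nearest array at 9.95. Fxyd5 was 6.26 in SL replicate 12, where the nearest array was 5.68. Gatm was 7.21 in the same array, where the nearest was 7.76. SL replicate 12 had a choroid plexus level of 6.96.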

How the results depend on the processing

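The count of interactions at an adjusted p under 0.05 was 0 in the fit reported. It was 2 when the 4 groups were normalized, filtered and fitted alone (Egr2 and Egr4). It ran from 0 to 2 when single arrays were left out, and was 0 under median scaling, signals floored at 16 without normexp, the deposited log2 table, no filter, the stricter filter, array weights, an intensity trend and without the 2 realigned arrays. The count past 1.7-fold, 10 as reported, was 24 with floored signals (6 higher and 18 lower) and 43 with the deposited log2 table (21 higher and 22 lower), and ran from 9 to 19 when single arrays were left out, with 19 without MNL replicate 9. On the intact side 11 probes were called, 7 when only probes detected on every array were tested, and 9 to 13 when single arrays were left out. On the lesioned side the count was 0 in each fit that gives it. Among 4323 values of 99 named probes, 115 had another sign than reported, each with an unadjusted p of at least 0.05 in both fits. The causes were not tested.

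The labels do not pair the striata. With neighbouring numbers taken as a replicate block, 8 interactions were called with a fixed block and 8 with a random block (consensus correlation 0.348). Egr2, Egr4, Egr1, Junb, Arc and Rasl11a were called in both, Fos and the unnamed probe ILMN_1376762 with the fixed block, and Slc25a25 and another unnamed probe with the random block. Of 11 such pairs, 10 had deviations correlated above 0.1 (-0.0662 to 0.71, median 0.380), and 18 of 22 arrays correlated best with their own neighbour, which is a hint from the data and not the design. The fixed block gives no METH effect per side. Chosen after seeing the data, runs of 12 numbers as a term (median 12.6% of the within-group variance) gave 0 calls, and 0 were called without the 4 arrays high in choroid plexus transcripts.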

Other observations

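The titles of the control arrays carry a letter, a or b, that the labels do not explain. In MC, Egr2 was 8.75 and 8.58 in replicates 5 and 13, which carry a, and 10.26 and 10.07 in replicates 7 and 14, which carry b. Arc was 7.86 and 7.97 against 9.17 and 9.07, and Nr4a3 was 7.64 and 7.15 against 8.87 and 8.77. These values were noticed after the data were seen, and the difference was not tested.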
